A study of Mus musculus with 6 samples.

Results

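The 9 genes Ifngr1, Ifngr2, Jak1, Jak2, Stat3, Irf1, Socs1, Socs3 and Cish encode parts of the interferon gamma signalling pathway and of the feedback that switches cytokine signalling off. They were taken by gene symbol from a table of 54532 genes, in which each symbol occurred once, and all 9 passed the filter on low counts together with 14883 genes in all. RNA-seq of primary mouse T cells, which the study describes as spleen CD8T cells activated with anti-CD3/CD28 beads, was compared after coculture with untreated cells (control group, 3 libraries) or with cells given DB2313, which inhibits the myeloid transcription factor Spi1 (DB2313 group, 3 libraries). The cocultured cells are dendritic cells in the sample labels and thioglycolate-induced peritoneal macrophages in the study's methods, and this conflict was not resolved here. The free-text treatment entry names DB2313 for all 6 samples, so that the groups rest on the treatment tag and the column names, which set the controls apart. According to the methods, macrophages of both groups received IFN-γ itself, the ligand of the pathway, at 10 ng/mL over 12 hr before they met the T cells for 24 hr at an equal cell ratio, and DB2313 was used at 14 nM. The cells collected afterwards were not described as sorted. The strain, age and sex of the mice, whether animals were pooled and whether the 3 libraries of a group came from separate cultures are not given in the sources used here, so that p-values measure the spread between these libraries, which may be technical.

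Interferon gamma is released mainly by activated T cells and natural killer cells and binds a receptor of Ifngr1, the ligand-binding chain, and Ifngr2, the signalling chain. Jak1 is attached to Ifngr1 and Jak2 to Ifngr2, and both kinases are needed to phosphorylate STAT factors, which enter the nucleus and induce genes such as Irf1 through a DNA element named the gamma-activated site. Irf1 in turn induces genes of antigen presentation and also the inhibitor Socs1, which blocks Jak1 and Jak2. Stat3 serves mainly interleukin 6, interleukin 10 and related cytokines and induces Socs3, whereas Cish is induced by Stat5 downstream of interleukin 2 and restrains T cell receptor and interleukin 2 signalling. Macrophages and T cells both carry the receptor, and macrophages respond to it strongly.

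Library totals lay between 16611975 and 18596217 counts, and the 9 genes together took 0.286% to 0.288% of the counts of a control library and 0.301% to 0.308% of those of a DB2313 library. T cell and macrophage genes were counted in all 6 libraries. Each of 20 T cell genes rose (median 0.59 on the log2 scale), and these genes together took 0.339% to 0.343% of control counts and 0.534% to 0.546% of DB2313 counts. Of 20 macrophage genes, 18 fell and 2 rose (Marco and Trem2), with a median of -1.01, and the list took 1.29% to 1.32% of control counts and 0.571% to 0.590% of DB2313 counts. None of the genes in either list was at 0 in a library. The defining T cell genes Cd3e, Cd8a and Cd8b1 lay at 136, 119 and 107 CPM in the control group and at 169, 172 and 166 CPM in the DB2313 group (CPM are TMM-normalized counts scaled to library depth, means of n = 3 each). Lyz2, a lysozyme gene of macrophages and neutrophils, lay at 7702 and 2084 CPM. At an adjusted p below 0.05 (edgeR), 20.8% of all tested genes were higher and 24.6% lower. By that threshold all 10 neutrophil genes fell, and 7 of 9 tested dendritic cell genes fell and 1 rose. Of 10 B cell genes 7 rose and 1 fell, all 5 tested natural killer cell genes rose, and of 5 tested stromal genes 2 rose. In such bulk libraries fewer cells of a type and less RNA per cell cannot be told apart, and the part of these differences in the results below was not tested.

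Promoter sequences of all 9 genes were found in RefSeq (GRCm38.p6), in 10 windows of 300 bases since Irf1 has a pair of start sites. Stretches are shown for the 4 genes whose window matched a binding element of the pathway, to let the reader see where Irf1 and the inhibitors carry these letters. A match is a description of the letters and was not tested as a binding site. The gamma-activated site, searched as TTCNNNGAA on both strands (it reads the same on each), was found in the windows of Irf1, Socs3 and Cish and in 8.3% of the 32851 promoters of the table. The interferon-stimulated response element, searched as GAAANNGAAA on both strands (TTTCNNTTTC on the other), was found only in Socs1 among the 9 genes and in 3.44% of all promoters. A core of Spi1-type ETS sites, searched as GAGGAA on both strands, was found only in Socs1 among the 9 genes and in 28.3% of all promoters. No match was found for these letters in the windows of Ifngr1, Ifngr2, Jak1, Jak2 and Stat3. The sequences are written 5′ to 3′ along the gene's strand with the matches to the first 2 elements in capitals.
Irf1, chr11:53769874-53769973, plus strand, 140 to 41 bases before the start site: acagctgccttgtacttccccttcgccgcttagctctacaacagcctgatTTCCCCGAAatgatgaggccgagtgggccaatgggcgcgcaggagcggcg
Socs1, chr16:10785587-10785696, minus strand, 160 to 51 bases before the start site: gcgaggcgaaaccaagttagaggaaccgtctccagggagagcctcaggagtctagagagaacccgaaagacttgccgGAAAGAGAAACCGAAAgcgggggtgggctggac
Socs3, chr11:117969453-117969552, minus strand, 186 to 87 bases before the start site: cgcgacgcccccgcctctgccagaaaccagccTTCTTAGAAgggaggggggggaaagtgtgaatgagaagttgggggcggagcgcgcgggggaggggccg
Cish, chr9:107296654-107296683, plus strand, 5 bases before to 25 bases after the start site: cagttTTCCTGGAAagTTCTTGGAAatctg
The single match of Irf1 begins 90 bases before its start site and that of Socs3 154 bases before. The printed stretch of Socs3 lies before the RefSeq start but inside the deposited gene, which begins further upstream, and in none of its annotated exons. The 2 matches of Socs1 to the interferon-stimulated element begin 83 and 77 bases before and overlap each other, and its GAGGAA, left in lower case, begins 141 bases before and overlaps neither. The 2 matches of Cish lie side by side at bases 1 to 9 and 12 to 20 after the RefSeq start. The printed stretch of Cish overlaps an exon of the transcript Cish-201 in GENCODE mouse release 21, and the gene Gm17040 on the opposite strand.

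To ask whether the level of these genes in the T cell cultures differed with DB2313, each gene was tested in the fit over all 14883 genes with edgeR's quasi-likelihood test. At an adjusted p below 0.05, 3 of the 9 genes were higher with DB2313 (Ifngr1, Jak1 and Socs1), 5 were lower (Ifngr2, Jak2, Stat3, Socs3 and Cish) and Irf1 was not called. Among all tested genes 20.8% were called higher and 24.6% lower, 45.4% in all. No member passed the additional threshold of an absolute log2 fold change of 1, which 1.37% of all genes passed as higher and 5.3% as lower, 6.67% in all. The median log2 fold change of the 9 genes was -0.09, beside 0.019 over all tested genes. The groups were without overlap for 8 of the 9 genes, as for 53.1% of all tested genes, and the two-sided exact permutation test then gave p = 0.1, the smallest possible with 3 against 3. These directions are those under TMM, a scaling that takes the bulk of genes as constant. Library size scaling moved the median of all genes by 0.094, upper quartile scaling by 0.064 and scaling to the 20 T cell genes by -0.57 on the log2 scale. Lower genes made up 54.2% of the calls under TMM, 36.6% under library size, 41.8% under the upper quartile and 98.3% under the T cell genes.

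**Figure D1:**
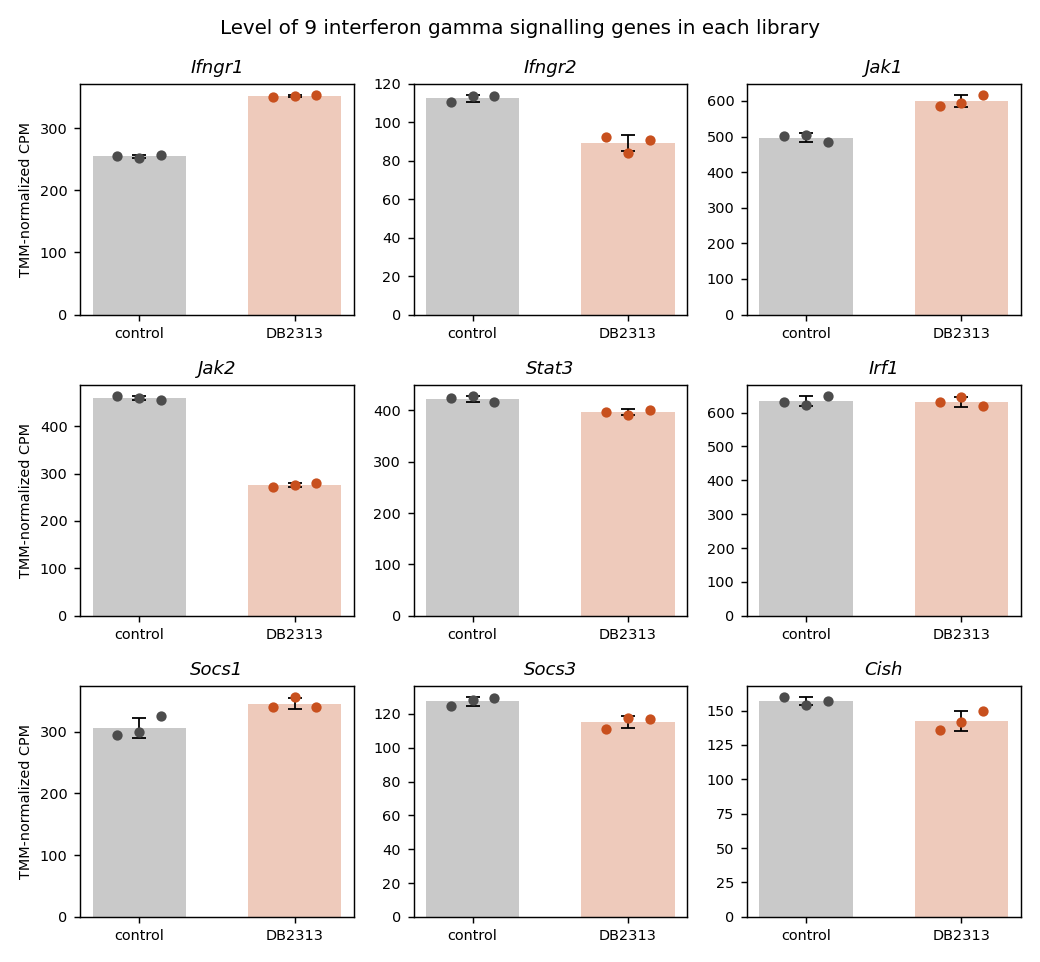
Level of each of the 9 genes in the control (grey) and DB2313 (orange) groups, in TMM-normalized CPM on axes that start at 0. Points are libraries, bars are means of 3 libraries and error bars are SD; Ifngr1 and Jak1 are higher and Ifngr2 and Jak2 lower with DB2313, while the points of Irf1 overlap.

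The receptor chains changed in opposite directions. Ifngr1 (ENSMUSG00000020009, chromosome 10 of GRCm38 from 19591949 to 19610229, plus strand) had 256, 252 and 257 CPM in the control libraries and 351, 353 and 354 CPM in the DB2313 libraries. All DB2313 libraries exceeded all control libraries, and replicates differed by a few CPM. The mean rose from 255 ± 2.57 to 353 ± 1.69 CPM (SD, n = 3 each), a log2 fold change of 0.47 (standard error 0.03, adjusted p = 2.35e-11, edgeR). Ifngr2 (ENSMUSG00000022965, chromosome 16 from 91547072 to 91565623, plus strand) had 110.4, 114 and 114 CPM in the control libraries and 92.2, 84.2 and 90.7 CPM in the DB2313 libraries. Here every DB2313 library lay below every control library, the lowest being DB2313 replicate 2. The mean fell from 113 ± 1.83 to 89.1 ± 4.26 CPM (SD, n = 3 each), a log2 fold change of -0.34 (standard error 0.04, adjusted p = 8.87e-07, edgeR). When the libraries were scaled to the T cell genes, Ifngr1 turned to -0.10 (adjusted p = 0.00877) and Ifngr2 was at -0.90.

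The ratio of the chains within a library does not depend on how libraries are scaled. Per kilobase of gene length, counts of Ifngr1 were 3.07, 2.94 and 2.99 times those of Ifngr2 in the control libraries and 5.03, 5.54 and 5.17 times in the DB2313 libraries. The excess of the ligand-binding chain over the signalling chain was thus larger in every DB2313 library than in any control library. The log2 ratio differed by 0.80, or 1.75-fold (two-sided exact permutation test, p = 0.1, adjusted p = 0.14 over 7 ratios, in a design that cannot go below 0.1). Without DB2313 replicate 2, which had the highest ratio, the difference was 0.77.

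The kinases that are bound to these chains split in the same way. Jak1 (ENSMUSG00000028530, chromosome 4 from 101152367 to 101265282, minus strand), the kinase on Ifngr1 and on many other cytokine receptors, had 502, 505 and 484 CPM in the control libraries and 585, 594 and 618 CPM in the DB2313 libraries. The groups did not overlap, and the highest value was that of DB2313 replicate 3. The mean rose from 497 ± 11.5 to 599 ± 16.7 CPM (SD, n = 3 each), a log2 fold change of 0.27 (standard error 0.03, adjusted p = 3.78e-07, edgeR), which turned to -0.30 with scaling to the T cell genes. Jak2 (ENSMUSG00000024789, chromosome 19 from 29251828 to 29313080, plus strand), the kinase on Ifngr2 and on the receptors for granulocyte-macrophage colony-stimulating factor and erythropoietin, had 464, 459 and 456 CPM in the control libraries and 271, 275 and 279 CPM in the DB2313 libraries. This was the largest change among the 9 genes, and the gap between the groups was many times the spread within them. The mean fell from 459.7 ± 4.15 to 275 ± 4.17 CPM (SD, n = 3 each), a log2 fold change of -0.74 (standard error 0.03, adjusted p = 4.55e-15, edgeR). It lay at -0.65 with library size, -0.68 with the upper quartile and -1.31 with the T cell genes, the one scaling under which a member passed a log2 fold change of 1.

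Per kilobase, the order of both kinases was inverted between the groups. Counts of Jak1 were 0.753, 0.765 and 0.739 times those of Jak2 in the control libraries and 1.504, 1.504 and 1.54 times in the DB2313 libraries. Per kilobase, Jak2 therefore exceeded Jak1 in each control library and Jak1 exceeded Jak2 in each DB2313 library. This inversion rests on the deposited gene lengths, 7227 bases for Jak1 and 5030 for Jak2. In CPM, Jak1 exceeded Jak2 in the control libraries as well (502, 505 and 484 against 464, 459 and 456). The difference of the ratio between the groups does not depend on the lengths. The log2 ratio differed by 1.01, or 2.01-fold (two-sided exact permutation test, p = 0.1, adjusted p = 0.14 over the 7 ratios), and by 0.997 to 1.02 when each library was left out in turn.

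**Figure D2:**
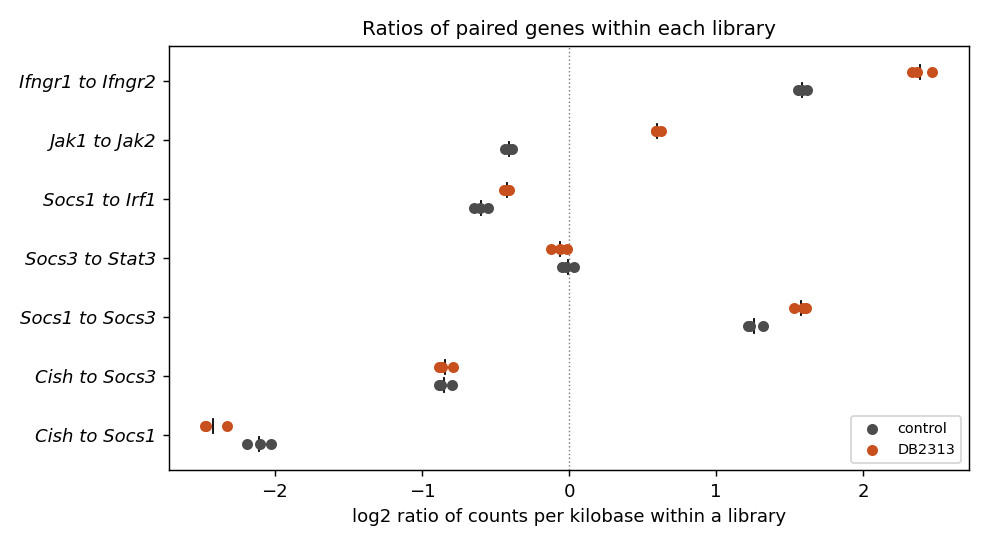
Log2 ratio of counts per kilobase of 7 pairs of genes within each library, for the control (grey) and DB2313 (orange) groups, with short lines at the means of 3 libraries. The Jak1 to Jak2 ratio lies below 0 in the control libraries and above 0 in the DB2313 libraries, whereas the Cish to Socs3 and Socs3 to Stat3 ratios overlap between the groups.

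Irf1 (ENSMUSG00000018899, chromosome 11 from 53770014 to 53778374, plus strand), a transcription factor that is rapidly induced by interferon gamma, was the most abundant member per kilobase and did not pass the test. It had 630.2, 624 and 649.8 CPM in the control libraries and 632, 647 and 618 CPM in the DB2313 libraries, so that the groups overlapped. The means were 635 ± 13.5 and 632 ± 14.3 CPM (SD, n = 3 each), with a log2 fold change of -0.0049 (standard error 0.03, adjusted p = 0.916, edgeR). Its 95% confidence interval ran from -0.071 to 0.061, or from -4.82% to 4.35%, and thus held neither the rise of Ifngr1 nor the fall of Jak2. The sign of Irf1 depended on the scaling, with 0.089 by library size (adjusted p = 0.0181), 0.059 by the upper quartile and -0.57 by the T cell genes. The gene Gm17334 overlaps Irf1 on the opposite strand with at most 75 counts in a library, against at least 10637 of Irf1.

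Stat3 (ENSMUSG00000004040, chromosome 11 from 100885098 to 100939540, minus strand), the factor that mediates interleukin 6 and interleukin 10 signals, had 424, 427 and 417 CPM in the control libraries and 397, 391 and 401 CPM in the DB2313 libraries. All DB2313 libraries lay below the control libraries by a narrow margin. The mean fell from 423 ± 5.58 to 397 ± 5.12 CPM (SD, n = 3 each), a log2 fold change of -0.09 (standard error 0.03, adjusted p = 0.0223, edgeR) that lost its call without control replicate 1 or 2 or without DB2313 replicate 2 (adjusted p from 0.0578 to 0.0994). With library size scaling the value was 0.0026 and with the upper quartile -0.028, neither of them called. The end of Stat3 overlaps Stat5a on the opposite strand by 72 bases, and whether counting used the strand is not given in the sources used here, so reads there could have been counted on either gene.

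The inhibitors diverged. Socs1 (ENSMUSG00000038037, chromosome 16 from 10782240 to 10785536, minus strand), which binds and blocks Jak1 and Jak2, had 295, 299.9 and 325 CPM in the control libraries and 341, 356 and 339.7 CPM in the DB2313 libraries. The DB2313 libraries were all higher, although control replicate 3 came close to them. The mean rose from 307 ± 16.2 to 346 ± 9.41 CPM (SD, n = 3 each), a log2 fold change of 0.17 (standard error 0.04, adjusted p = 0.000661, edgeR), which turned to -0.39 with scaling to the T cell genes. Socs3 (ENSMUSG00000053113, chromosome 11 from 117966079 to 117970047, minus strand), which acts on receptors of the interleukin 6 family, had 125, 128 and 129.6 CPM in the control libraries and 111, 118 and 117 CPM in the DB2313 libraries. The groups did not overlap. The mean fell from 127 ± 2.55 to 115 ± 3.62 CPM (SD, n = 3 each), a log2 fold change of -0.15 (standard error 0.04, adjusted p = 0.00382, edgeR).

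Cish (ENSMUSG00000032578, chromosome 9 from 107296026 to 107302784, plus strand), a Stat5 target, had 159.8, 154 and 157 CPM in the control libraries and 136, 142 and 149.9 CPM in the DB2313 libraries. All DB2313 libraries were lower, with DB2313 replicate 3 nearest to the control libraries. The mean fell from 157 ± 2.77 to 142 ± 7.19 CPM (SD, n = 3 each), a log2 fold change of -0.14 (standard error 0.04, adjusted p = 0.0059, edgeR), and the call was lost without DB2313 replicate 1 (adjusted p = 0.0517). Neither Socs3 nor Cish was called with library size scaling (-0.053 and -0.047) or upper quartile scaling (-0.083 and -0.078), although both stayed below 0. Under both of these scalings 2 members were lower (Ifngr2 and Jak2) in place of 5. The plot of the 4 scalings shows which genes cross 0.

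**Figure D3:**
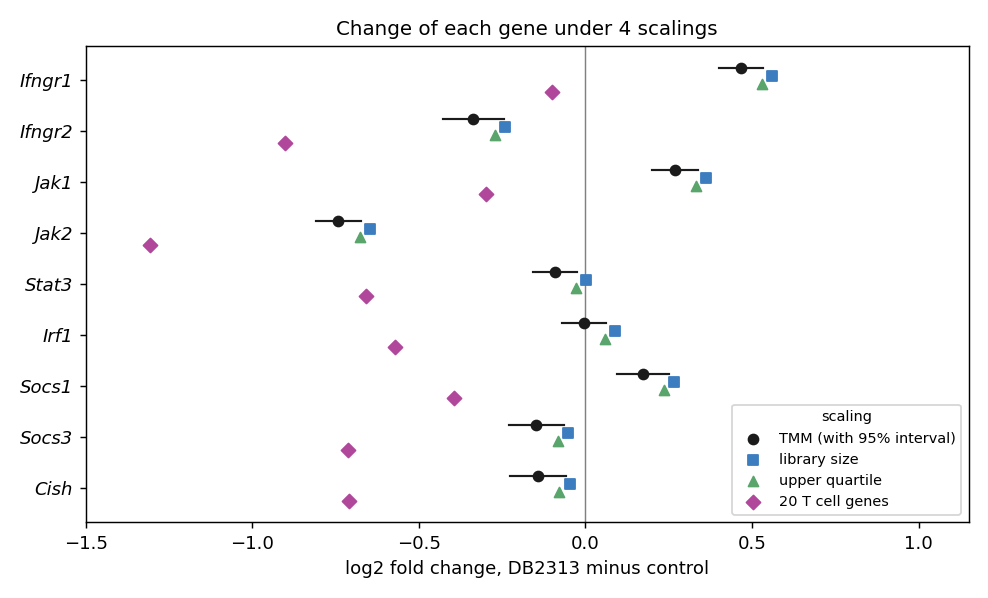
Log2 fold change (DB2313 minus control) of the 9 genes under TMM (black, with 95% confidence interval), library size (blue), upper quartile (green) and T cell gene scaling (purple). The order of the genes is the same under each scaling and the whole set shifts, so that Ifngr1, Jak1 and Socs1 are above 0 under the first 3 and below 0 when scaled to the 20 T cell genes.

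Ratios among the inhibitors, and of Socs1 to Irf1 and Socs3 to Stat3, were compared within libraries as well. Per kilobase, counts of Socs1 were 2.35, 2.33 and 2.49 times those of Socs3 in the control libraries and 3.05, 3.01 and 2.89 times in the DB2313 libraries, a difference of 0.32 on the log2 scale without overlap. Relative to Irf1, Socs1 was at 0.640, 0.657 and 0.684 in the control libraries and at 0.737, 0.753 and 0.751 in the DB2313 libraries, a difference of 0.18 without overlap. Socs1 was thus higher relative to both genes in every DB2313 library. Cish fell relative to Socs1 by 0.32 on the log2 scale, again without overlap. The Cish to Socs3 ratio overlapped between the groups with a difference of 0.0045. The sign of this difference changed in the absence of control replicate 2 or 3 or of DB2313 replicate 3 (range -0.022 to 0.033). The Socs3 to Stat3 ratio also overlapped, with a difference of -0.055 that stayed negative when each library was left out (range -0.080 to -0.028). Of the 7 ratios, the 5 without overlap had p = 0.1 and an adjusted p of 0.14, and the Socs3 to Stat3 and Cish to Socs3 ratios had p = 0.3 and p = 0.7 (two-sided exact permutation test).

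Levels per kilobase allowed the genes to be ordered, in an order that rests on the deposited gene lengths. By mean CPM of the control group, Cish (157) lay above Socs3 (127) and Ifngr2 (113), and Jak1 (497) above Jak2 (460). In the control group the order in TMM-normalized counts per kilobase (RPKM, CPM divided by the deposited gene length in kilobases) was Irf1 at 159.6 ± 3.41, Socs1 at 105 ± 5.57, Jak2 at 91.4 ± 0.824, Ifngr1 at 89.6 ± 0.902, Jak1 at 68.8 ± 1.59, Stat3 at 44.4 ± 0.586, Socs3 at 44.1 ± 0.882, Ifngr2 at 29.9 ± 0.486 and Cish at 24.5 ± 0.431 (SD, n = 3 each). Only Stat3 and Socs3, among neighbours in this order, overlapped in their libraries. In the DB2313 group Ifngr1 moved from the fourth to the second place at 124 ± 0.593 RPKM and Jak2 from the third to the fifth at 54.7 ± 0.829 RPKM (SD, n = 3 each). There the only overlapping neighbours were Ifngr2 and Cish, at 23.6 ± 1.13 and 22.2 ± 1.12 RPKM (SD, n = 3 each).

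The ligand was barely counted. Ifng, which encodes interferon gamma, had 27, 18 and 24 counts in the control libraries and 24, 7 and 15 in the DB2313 libraries, or 1.34 ± 0.251 and 0.842 ± 0.445 CPM (SD, n = 3 each). The groups overlapped and the difference was not called (log2 fold change -0.65, standard error 0.39, adjusted p = 0.19, edgeR), although with scaling to the T cell genes it was called lower at -1.21 (adjusted p = 0.00804, edgeR). Per kilobase, Ifng lay at 1.03 RPKM in the control group, below each of the 9 genes.

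Of the other Janus kinases, Tyk2, which serves type I interferon and interleukin 12 receptors, had 219.9, 214 and 224 CPM in the control libraries and 142, 149 and 144 CPM in the DB2313 libraries. It fell by 0.60 on the log2 scale (standard error 0.04, adjusted p = 2.26e-12, edgeR), without overlap between the groups. Jak3, which is bound to the common gamma chain of lymphocyte cytokine receptors, had means of 155 and 154 CPM and was not called (log2 fold change -0.0081). Of the 4 Janus kinases 1 was higher and 2 were lower, beside 20.8% and 24.6% of all tested genes. All 4 were lower when scaled to the T cell genes.

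Of 6 STAT genes 2 were higher, 3 lower and 1 not called, beside 20.8% of all tested genes called higher and 24.6% lower. Stat2, a factor of type I interferon signalling, was at 0.12 (adjusted p = 0.00842), and Stat5b, an effector of interleukin 2, at 0.19 (adjusted p = 0.000102). Stat5a, the near-identical partner of Stat5b, was at -0.21 (adjusted p = 0.00016) and Stat6, which serves interleukin 4, at -0.16 (adjusted p = 0.000567). The Stat5 genes share sequence, so the division of reads between them is uncertain. Stat4, the factor of interleukin 12, was at -0.08 (adjusted p = 0.28, all from edgeR). With library size scaling 2 of these genes were higher and 1 lower, and with scaling to the T cell genes all 6 were lower.

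Of the 8 SOCS family genes 1 was higher (Socs1) and 3 lower, beside 20.8% and 24.6% of all tested genes, and 4 were not called. Socs2, an inhibitor of growth hormone and Stat5 signalling, changed most, from 222, 216 and 209 CPM in the control libraries to 149.9, 153 and 159.8 CPM in the DB2313 libraries. The groups were far apart, with a fall of 0.48 on the log2 scale (standard error 0.04, adjusted p = 1.75e-10, edgeR). Socs4, Socs5, Socs6 and Socs7 ranged from -0.09 to 0.11 and had means of at most 65.6 CPM in the control group. With library size or upper quartile scaling Socs2 was the one lower gene of the family, and with scaling to the T cell genes all 8 were lower.

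Among 9 other inhibitors of cytokine signalling, Usp18 rose and Ptpn1, Ptpn6 and Pias3 fell, beside 20.8% of all tested genes higher and 24.6% lower. The other 5 were not called. Usp18, an interferon-induced protease that dampens type I interferon signalling, went from 111 ± 4.44 to 134 ± 2.68 CPM (SD, n = 3 each), a log2 fold change of 0.27 that turned to -0.29 with scaling to the T cell genes. Ptpn6, which encodes the phosphatase SHP-1 of blood cells, went from 340.2 ± 8.3 to 227 ± 6.94 CPM (SD, n = 3 each), a log2 fold change of -0.58 (standard error 0.04, adjusted p = 1.97e-12, edgeR). It was the largest fall of the list. With library size and upper quartile scaling Pias1 and Pias2 were also called higher and Pias3 was not called (adjusted p = 0.173 and 0.0955, edgeR), and with scaling to the T cell genes all 9 were lower.

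A group of 8 IRF genes was spread more widely than the 9 members. Irf7, a factor that is itself induced by type I interferon, rose from 376 ± 14.8 to 582 ± 15.4 CPM (SD, n = 3 each), a log2 fold change of 0.63 (standard error 0.04, adjusted p = 4.08e-13, edgeR) that was no longer called with scaling to the T cell genes (0.065, adjusted p = 0.113), under which none of these genes was higher. Irf3 and Irf9 rose as well, by 0.26 and 0.31. Irf4, a factor of activated lymphocytes and of some myeloid cells, fell from 117 ± 1.75 to 52.1 ± 2.49 CPM (SD, n = 3 each), a log2 fold change of -1.17 (standard error 0.05, adjusted p = 1.19e-15, edgeR). Irf5 and Irf8, factors of macrophages, dendritic cells and B cells, fell by 1.07 and 1.08 on the log2 scale. Thus 3 IRF genes passed a log2 fold change of 1, beside 5.3% of all tested genes that passed it as lower. Only Irf4 did with library size scaling, with Irf5 at -0.97 and Irf8 at -0.99. Irf2 fell by 0.17, a call that was lost with library size scaling (adjusted p = 0.141, edgeR), and Irf1 was not called. Irf3 and Irf9 turned to -0.31 and -0.26 with scaling to the T cell genes.

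**Figure D4:**
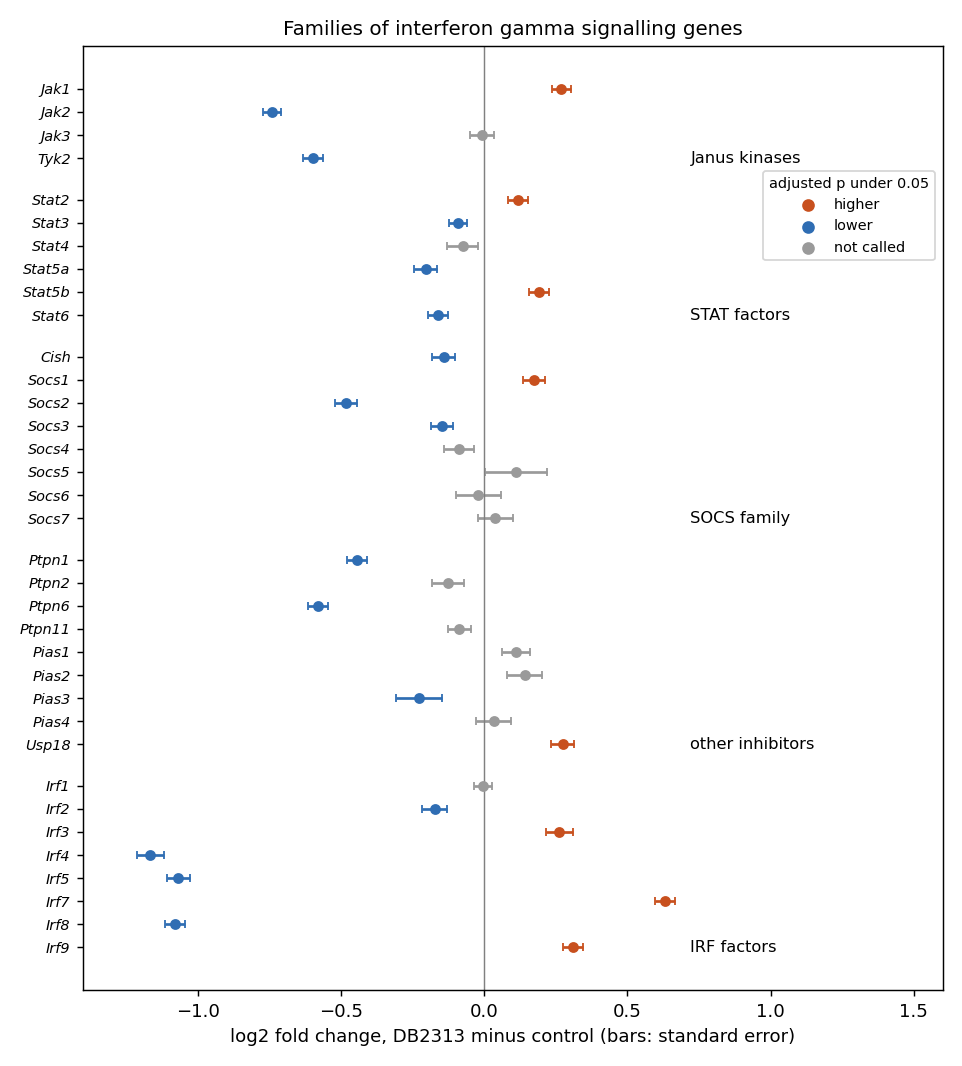
Log2 fold change (DB2313 minus control, TMM) of the Janus kinase, STAT, SOCS, other inhibitor and IRF genes, with standard errors. Orange points were higher and blue points lower at an adjusted p below 0.05 in the fit over all genes, and grey points were not called; Irf4, Irf5 and Irf8 lie beyond -1.

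A list of 19 genes that interferon gamma is known to induce, which includes Irf1, Irf8 and Socs1, did not move as one. Of the 19, 4 were higher, 10 lower and 5 not called, beside 20.8% higher and 24.6% lower among all tested genes. The log2 fold changes of the 19 ranged from -3.41 to 0.57 around a median of -0.10. Igtp, a GTPase of cell-autonomous immunity, rose most, from 868 ± 5.39 to 1291 ± 11.5 CPM (SD, n = 3 each). Nos2, the inducible nitric oxide synthase of activated macrophages, fell most, from 126, 144 and 130 counts in the control libraries to 8, 22 and 9 in the DB2313 libraries. Ciita, the master regulator of MHC class II, was next with a log2 fold change of -2.45 (standard error 0.04, adjusted p = 2.56e-22, edgeR). The immunoproteasome genes Psmb8 and Psmb9 and the peptide transporter gene Tap1 were between 0.046 and 0.067 and were not called, whereas all 3 were called higher with library size and upper quartile scaling and lower with the T cell genes. With library size scaling 8 genes were higher and 9 lower, and with scaling to the T cell genes none was higher and 18 were lower.

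Genes with a pattern like that of Jak2, the member that changed most, were sought among the 9333 that code for proteins and averaged 10 CPM or more. The highest Pearson correlations of log2 CPM over the 6 libraries were those of Thbs1, which encodes the matrix protein thrombospondin 1, Mmp25, which encodes a metalloproteinase of leukocytes, and Zfp366, each at 0.9999. The points are 3 libraries of each group, so any gene with a clear fall gives a high value, and 632 of the genes exceeded 0.99. The log2 fold changes of these genes were -1.83, -1.06 and -1.66, each larger than that of Jak2.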

How the data were processed

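The authors deposited raw read counts per gene for 6 libraries, without normalization. The study's methods name LifeScope for alignment and counting, whereas the submitters' processing notes name CASAVA 1.8, HISAT2 2.0.5 and featureCounts 1.5.0-p3; strandedness and read filters are not given in the sources used here. Of 54409 genes shared with GENCODE mouse release 21, 98.3% had its GRCm38 coordinates, as had all 9 members. Library totals of 16611975 to 18596217 counts leave counting error small for the members, which had at least 1437 counts; since reads carry no molecular identifiers, this covers counting only. Replicates differed beyond sampling noise (chi-square per gene 2.54 to 4.00 within groups, 51.8 to 56.0 between).

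The main test was the quasi-likelihood test of edgeR 4.0.16 in R 4.3.3 (glmQLFit and glmQLFTest after filterByExpr and TMM) with Benjamini-Hochberg adjustment over 14883 genes, and called at an adjusted p of 0.05. The standard error is the change divided by the root of F. RPKM was computed from TMM CPM and the deposited gene length. Ratios added 1 count per gene. Scripts were tested on simulated counts. The alternatives were DESeq2 1.42.0, 3 scalings, 2 filters, a replicate block, glmTreat and leaving out each library.

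The members and lists were chosen with earlier results of these data known. Named were the members, the Janus kinase, STAT and SOCS genes of the lists, the largest rise and fall of each list and the 3 genes most like the member that changed most; Ptpn1, Pias1, Pias2, Pias3, Irf2, Irf3, Irf5, Irf8, Irf9, Ciita, Psmb8, Psmb9, Tap1, Lifr, Csf3r and Il2rb were added after their values were seen. Some genes are not reported here and were left out of the lists. Protein sequences were not used here.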

Additional observations from a re-analysis of the deposited data

How the results depend on the processing

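Of 117 values of the 9 members under the alternatives, 98 had the direction and the call of the main result, 10 lost the call, 8 changed sign and 1 gained a call without changing sign. Irf1 was called under both library size scaling, with a changed sign, and scaling to the T cell genes (-0.57). Ifngr2 and Jak2 were lower in all of them. With library size scaling 2 members were lower in place of 5, Stat3 was at 0.0026 and Irf1 at 0.089; with upper quartile scaling 2 were lower and Irf1 was at 0.059. With scaling to the T cell genes 0 members were higher, 9 were lower and 1 (Jak2) passed a log2 fold change of 1, with Ifngr1 at -0.10, Jak1 at -0.30 and Socs1 at -0.39, since that scaling moved all genes by -0.57. When each library was left out in turn, 3 members were higher in each fit and 4 to 5 were lower, 0 passed the fold threshold, Irf1 ranged from -0.020 to 0.015 (above 0 without control replicate 3 or DB2313 replicate 3), and the Cish to Socs3 ratio from -0.022 to 0.033 (main value 0.0045). glmTreat called 0 members, and DESeq2 and both filters gave 3 higher and 5 lower. Without division by length the differences of the ratios between the groups were the same, while the ratios themselves depend on the lengths. The libraries share only replicate numbers (correlations of deviations of same-numbered libraries 0.014, -0.0039 and 0.019), so they were not taken as pairs; with a replicate block 2912 genes were higher and 3525 lower in place of 3096 and 3667, and 4 members were lower, as Stat3 missed the threshold (adjusted p = 0.0622, edgeR). Ifng rested on at most 27 counts in a library, and its change had a standard error of 0.39.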

Other observations

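Receptors that signal through Stat3 were mostly lower with DB2313. Of 10 tested receptor genes of the interleukin 6, interleukin 10 and related families, 8 fell, 1 rose and 1 was not called, with a median log2 fold change of -0.51, beside 24.6% of all genes called lower. The largest falls were in Lepr, the leptin receptor, with 48, 32 and 29 counts in the control libraries and 3, 8 and 9 in the DB2313 libraries, and Lifr, the receptor of leukaemia inhibitory factor, which fell by 2.33 on the log2 scale (standard error 0.27). Csf3r, the receptor of granulocyte colony-stimulating factor on neutrophils and their precursors, went from 45.1 ± 3.19 to 16.7 ± 1.08 CPM (SD, n = 3 each). Il27ra, the receptor chain for interleukin 27, was the one that rose under TMM, from 101 ± 2.43 to 119.8 ± 2.46 CPM (SD, n = 3 each). It was at -0.32 with scaling to the T cell genes, under which all 10 receptor genes were lower. With library size scaling 2 were higher and 7 lower. There Il6ra was also called higher (0.16, adjusted p = 0.00078, edgeR) and Il11ra1 was not called (adjusted p = 0.0664, edgeR). Of 12 genes that Stat3 is known to induce, 9 fell, 0 rose and 3 were not called, with a median of -0.22, and Fos, a subunit of the AP-1 factor, fell most, by 0.59. Of these, 6 fell with library size scaling. All 10 neutrophil genes and 18 of 20 macrophage genes fell in the same libraries, and their part in this was not tested.

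Under TMM, 3 of 8 receptor genes of the common gamma chain family were higher and 3 lower, beside 20.8% and 24.6% of all tested genes. With library size scaling 4 were higher and 2 lower, and with scaling to the T cell genes 0 were higher and 5 lower. Il7r, the interleukin 7 receptor of resting and memory T cells, rose from 211 ± 6.44 to 309 ± 1.54 CPM, and Il2rb, the signalling chain for interleukin 2 and 15, from 394 ± 4.34 to 555 ± 19.2 CPM (SD, n = 3 each). Il4ra, the interleukin 4 receptor, fell from 418 ± 5.9 to 292 ± 7.32 CPM (SD, n = 3 each). With scaling to the T cell genes, Il7r and Il2rb were at -0.013 and -0.071. Of 12 genes that Stat5 is known to induce, among them Cish, Socs1, Socs2 and Socs3, 4 rose and 6 fell. Among all tested genes 20.8% were higher and 24.6% lower. Pim2, a survival kinase, rose most, by 0.59 on the log2 scale, and Cdkn1a, a cell cycle inhibitor, fell by 0.65. With library size scaling 4 of the 12 rose and 2 fell. With scaling to the T cell genes 0 rose and 11 fell, and Pim2 was not called (0.028, adjusted p = 0.546, edgeR).

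Class II cytokine receptors are the family of Ifngr1 and Ifngr2. Of 8 tested genes of this family 1 rose (Ifngr1), beside 20.8% of all tested genes, and 3 fell, beside 24.6%. Besides Ifngr2 these were Il10ra, the interleukin 10 receptor, at 184 ± 1.9 CPM in the control and 113 ± 1.59 CPM in the DB2313 group (SD, n = 3 each), and Ifnlr1, the type III interferon receptor, whose log2 fold change of -1.64 (standard error 0.33) rested on means of 2.96 and 0.953 CPM. The chains of the type I interferon receptor, Ifnar1 and Ifnar2, were at -0.0016 and -0.08 and were not called. Ifnar1 was called higher with library size scaling (0.093, adjusted p = 0.0437, edgeR), so that 2 of the 8 rose, and with scaling to the T cell genes 7 were lower and 0 higher.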
